A study of Mus musculus with 12 samples.

Results

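The 9 genes described here, Mbp, Mog, Mag, Mobp, Cnp, Cldn11, Mal, Opalin and Ugt8a, encode proteins of the myelin sheath that oligodendrocytes make, or an enzyme of its lipids. They were chosen by name, and all 9 were found among the 38924 genes measured in each library. Whole spinal cords of 8-week-old mice on a B6J.Cg background gave the RNA for 12 polyadenylated RNA libraries. The titles give 6 libraries from heterozygous carriers of the C201R change in Gars, the glycyl-tRNA synthetase gene, and 6 from wild-type (WT) mice. Each genotype is titled as 3 females and 3 males. C201R females are libraries 1, 11 and 12 and C201R males 2, 3 and 10, while WT females are libraries 4, 5 and 6 and WT males 7, 8 and 9. The genotype tag reads C201R+/- for the first set and C201R+/+ for the second, and was read with the titles as heterozygous and wild type. The labels do not name the animal behind each library, so the spread behind each p-value is that between libraries, which may be technical.

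Oligodendrocytes wrap axons of the central nervous system in a multilayered, lipid-rich membrane that insulates them and speeds conduction. Mbp (myelin basic protein) and Mobp hold the cytoplasmic faces of the compact sheath together, and Cldn11 forms the tight junctions between its layers. Cnp lies in the non-compact, cytoplasm-filled channels, Mag faces the axon, Mog sits on the outermost surface, and Opalin is a transmembrane glycoprotein of central myelin. Mal is a raft-associated proteolipid that takes part in sorting of membrane cargo, and Ugt8a makes galactosylceramide, the typical myelin lipid. Sox10 and Myrf are the transcription factors that switch on many of these genes during oligodendrocyte differentiation. Schwann cells, which myelinate the nerve roots attached to the cord, use several of the same genes, Mbp, Mag, Mal, Cnp and Ugt8a among them.

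Before the comparisons, 3 facts about the libraries bear on every result. In 4 libraries the genotype of the title differs from that written in the library name: 4 and 9 are titled WT and named C201R, and 11 and 12 are titled C201R and named WT. Comparisons were therefore made by title, by library name and within the 8 libraries whose labels do not conflict (C201R libraries 1, 2, 3 and 10, WT libraries 5, 6, 7 and 8). Xist, the RNA of the inactive X chromosome, was above 500 CPM (522 to 685) in libraries 1, 2, 3, 8, 11 and 12 and at most 0.22 CPM in the others. This goes against the titled sex of 6 libraries and leaves 5 of the 6 libraries titled C201R, against 1 of the 6 titled WT, with high Xist. Of the undisputed libraries, C201R libraries 1, 2 and 3 but not 10 had high Xist, against WT library 8 alone. By library name, C201R libraries 1, 2 and 3 and WT libraries 8, 11 and 12 had it. Depth was 27175421 to 38271405 estimated counts per library. Gars itself ran from 130 to 155 CPM (CPM, the usual count of a gene relative to the size of its library, after TMM scaling). By library name its groups did not overlap, at 143 to 155 CPM in the 6 libraries named C201R and 130 to 142 CPM in the 6 named WT, whereas by title they did, with libraries 4 and 9, titled WT, at 155 and 152 CPM and libraries 11 and 12, titled C201R, at 139 and 137 CPM. These values were not used to set any group. Genes of tissues that adjoin the cord varied between libraries: the summed level of 9 Schwann cell myelin genes ranged from 526.0 CPM in library 8 to 2218 CPM in library 5, that of 8 skeletal muscle genes from 19.01 to 2773 CPM, and that of 6 fat genes from 0.669 to 229 CPM, the last in library 3. In whole-tissue RNA, fewer cells of a type and less RNA per cell cannot be told apart.

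All 9 genes were strongly expressed, with at least 1046 reads per library (Opalin, library 8) and up to 567821 (Mbp, library 9), so counting error was small beside the spread between libraries. On the length-corrected TPM scale (transcripts of a gene relative to all transcripts), the order was the same in every library except for 1 pair. Mbp had 16319 ± 1248 TPM (SD, n = 12) and was number 7 of all genes by median, where numbers 1 to 5, such as mt-Atp8 and mt-Co1, are encoded in mitochondria. Mobp had 2827 ± 184 TPM and Cnp 833 ± 63.5 TPM. Mag followed at 622 ± 37.9 TPM and was above Cldn11 in all 12 libraries, although their ranges over libraries overlapped. Cldn11 and Mal, at 523 ± 45.6 and 519 ± 42.1 TPM, did not differ beyond their spread, and Cldn11 was the higher in 6 of 12 libraries. Mog had 303 ± 19.8 TPM and Ugt8a 214 ± 19.1 TPM. Opalin was the lowest at 55.8 ± 8.75 TPM. Together the 9 genes took 1.92% of all TPM in library 2, the lowest share, and 2.49% in library 11, the highest, of which Mbp alone was 1.38% and 1.86%.

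**Figure D1:**
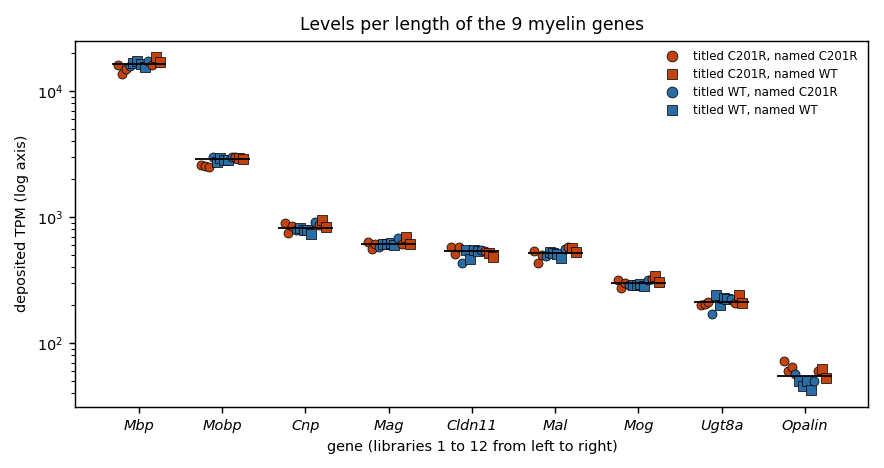
Deposited TPM of the 9 myelin genes on a log axis, 1 point per library (12 per gene), with the median as a line, coloured by title genotype and shaped by library-name genotype. Mbp stands far above the rest, Cldn11 and Mal lie at the same level, and Opalin is lowest.

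Relative to its mean, Opalin varied most between libraries, with a coefficient of variation of 14.8% on the CPM scale over the 12 libraries. Ugt8a and Cldn11 followed at 9.92% and 9.47%. The other 6 genes varied by 4.52% (Mog) to 6.89% (Mbp). The plot of CPM by library shows that the genes did not share 1 profile. Libraries 1 to 3 had the 3 highest Opalin and the 3 lowest Mobp values. Library 11 had the highest Mog, Mag, Cnp and Mbp values, and library 4 the lowest Cldn11, Ugt8a and Mag values.

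**Figure D2:**
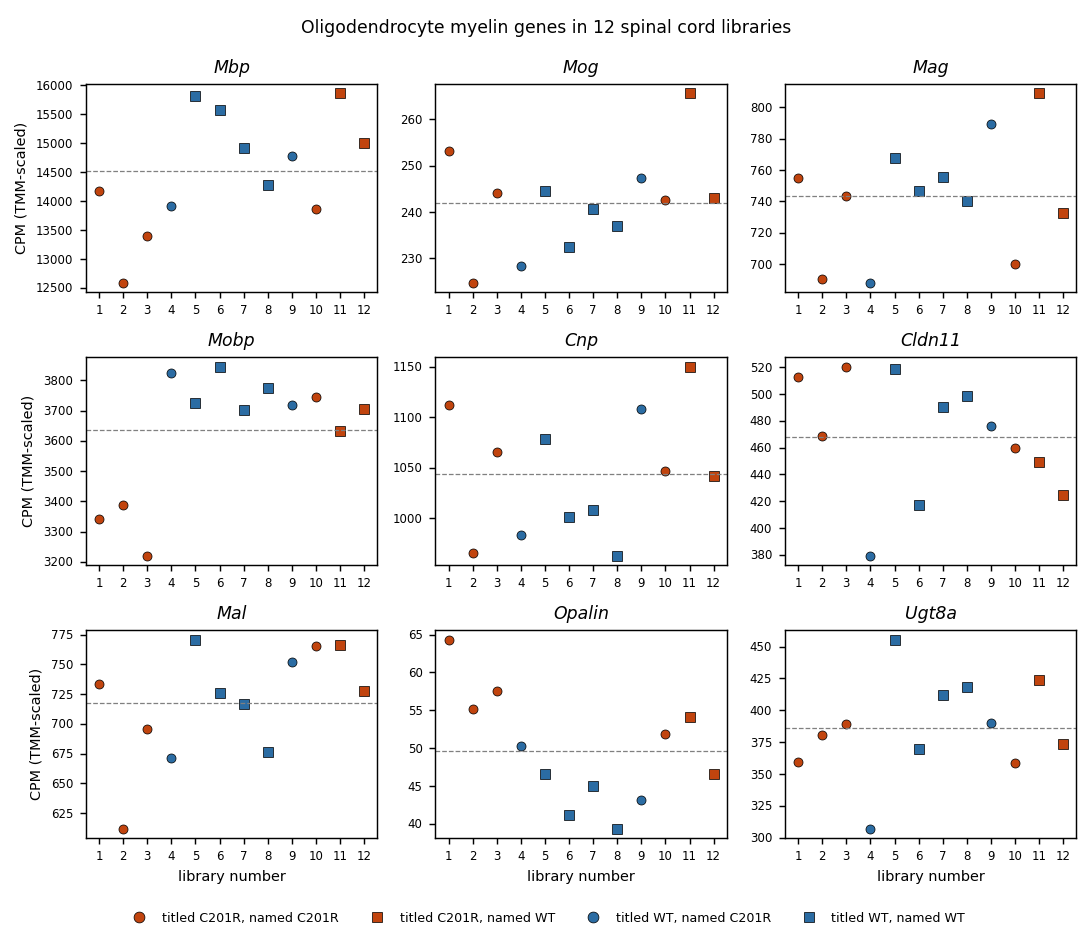
CPM after TMM scaling in each of the 12 libraries, 1 panel per gene with its own linear axis that does not start at 0; the dashed line is the mean over libraries, colour is the title genotype and shape the library-name genotype. Opalin is highest and Mobp lowest in libraries 1, 2 and 3, with Opalin at 64.3, 55.1 and 57.6 CPM there.

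The genotype comparison asks which transcripts of the cord differ between carriers and WT mice. None of the 9 myelin genes passed the threshold (adjusted p under 0.05, edgeR quasi-likelihood test) in any of the 3 genotype comparisons. The share of all tested genes called was 0% by title, 0.715% by library name and 0.158% in the 8 undisputed libraries, so a count of 0 among 9 genes is near that background. A p that misses the threshold does not show that levels were equal, and the 95% interval of each gene gives the sizes that remain possible. At an unadjusted p under 0.05, 2, 3 and 4 of the 9 genes passed in these comparisons, where 6.77%, 12.8% and 12.7% of all tested genes did. DESeq2 (adjusted p under 0.05) called 1, 2 and 2 of them, where it called 0.101%, 1.79% and 1.37% of all genes. The median log2 difference of the 9, C201R minus WT, was -0.01 by title, -0.04 by library name and -0.02 in the undisputed libraries, beside 0.00, 0.00 and 0.01 over all genes tested. By title 4 genes were higher and 5 lower, by library name 2 and 7, and in the undisputed libraries 4 and 5.

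**Figure D3:**
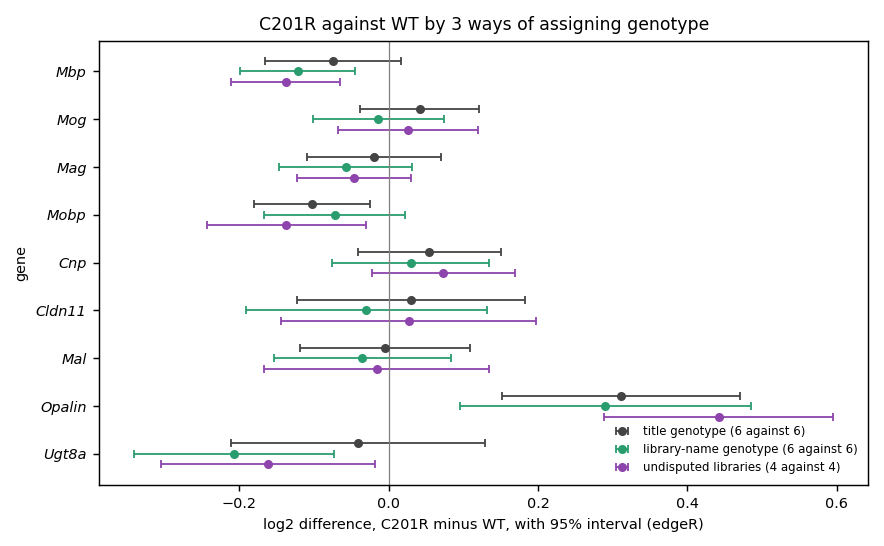
Log2 difference (C201R minus WT) of each myelin gene with its 95% interval from edgeR, by title (6 against 6 libraries), by library name (6 against 6) and in the undisputed libraries (4 against 4). Opalin lies to the right of 0 in all 3, at 0.31, 0.29 and 0.44, and Mbp and Mobp to the left; none passed after adjustment over all genes.

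Opalin showed the largest difference of the 9. The gene (ENSMUSG00000050121) lies on chromosome 19, 41061710 to 41077113, minus strand, in GENCODE M21. In the undisputed libraries it had 64.3, 55.1, 57.6 and 51.9 CPM in C201R libraries 1, 2, 3 and 10, and 46.6, 41.2, 45.04 and 39.3 CPM in WT libraries 5, 6, 7 and 8. Every C201R value was above every WT value. Opalin, higher, and Mbp, lower, were the 2 of 9 without overlap, beside 8.53% of all genes tested (3.82% higher and 4.71% lower in C201R). By title, library name and titled sex 0 of the 9 were without overlap, beside 0.349%, 1.64% and 0.293% of all genes. The means were 57.2 ± 5.28 and 43.1 ± 3.36 CPM (SD, 4 libraries each). That is 0.44 ± 0.07 (SE) in log2, or 1.36-fold with a 95% interval of 1.22 to 1.51, which did not pass (edgeR adjusted p = 0.0612). Without library 10 it was 0.47 and passed (edgeR adjusted p = 0.0422), as 0.659% of all genes then did. The C201R group of that fit is libraries 1, 2 and 3 alone, which had the highest Opalin values of all libraries. With no filter on low counts Opalin also passed (edgeR adjusted p = 0.0167, 0.345% of all genes called), as did Opalin and Mbp with limma voom and quality weights (adjusted p = 0.0166 and 0.0434, 1.32% called). Of the disputed libraries, 4 and 9, titled WT and named C201R, had 50.3 and 43.2 CPM, and 11 and 12, titled C201R and named WT, had 54.1 and 46.5 CPM. These 4 lay between or within the 2 undisputed ranges and went with neither label in full. By title the lowest, median and highest values were 46.5, 54.6 and 64.3 CPM in C201R and 39.3, 44.1 and 50.3 CPM in WT, and the groups overlapped. The log2 difference was 0.31 ± 0.07 by title (edgeR adjusted p = 0.542) and 0.29 ± 0.09 by library name (edgeR adjusted p = 0.185). DESeq2 called Opalin in all 3 (adjusted p = 0.0354, 0.0499 and 1.24e-06), within ranges over the other settings of 0.0354 to 0.995, 0.0499 to 0.633 and 1.24e-06 to 0.464. Without libraries 1, 2 and 3, a setting chosen after seeing the data, the log2 difference was 0.19 by title (edgeR adjusted p = 0.821) and 0.14 by library name (edgeR adjusted p = 0.633).

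Mobp ran the other way in the same libraries. The gene (ENSMUSG00000032517) lies on chromosome 9, 120149707 to 120181484, plus strand. It had 3341, 3389 and 3220 CPM in libraries 1, 2 and 3, and 3632 to 3845 CPM in the other 9. Library 10, C201R by both labels, had 3746 CPM and was within the range of the undisputed WT libraries, which was 3703 to 3845 CPM. Opalin and Mobp are therefore 2 genes whose values in libraries 1 to 3 do not overlap those of the other libraries, a pattern seen in 6.69% of all genes tested (2.69% higher, as Opalin, and 4% lower, as Mobp), and these libraries were singled out after their values were seen. In the undisputed libraries the log2 difference of Mobp was -0.14 ± 0.05 (edgeR adjusted p = 0.274). Without library 10 it was -0.18 and passed (edgeR adjusted p = 0.0311), but the C201R group is then libraries 1, 2 and 3 alone. By title Mobp had 3505 ± 217 CPM among carriers against 3765 ± 59.1 CPM among WT (SD, 6 libraries each), a difference of -0.10 ± 0.04 in log2 (adjusted p = 0.671 by edgeR). Without libraries 1, 2 and 3 that difference was -0.03 by title (edgeR adjusted p = 0.846) and 0.02, with the opposite sign, by library name (edgeR adjusted p = 0.87). Libraries 1 to 3 also had high Xist and, for library 3, the highest fat and muscle sums, 229 and 2773 CPM. Library 2 had the highest blood sum, 2986 CPM, and a muscle sum of 19.01 CPM, while its Opalin and Mobp lay with those of libraries 1 and 3. The part of these tissues and of sex in the pattern was not tested.

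The bases just before the starts of these 2 genes are shown because their levels ran in opposite directions over the 12 libraries. They are taken from RefSeq on GRCm38.p6 and run 5′ to 3′ on the gene's strand, ending before the start of the gene in GENCODE M21 as well as in RefSeq. Capitals mark the SOX-type motif ACAAAG on either strand, so that CTTTGT is its match on the other strand; ACAATG, the Myrf motif CTGGCAC and the E-box CAGCTG were also searched on both strands, and no 2 of the motifs share a match. The Mobp window is chr9:120149492-120149706, plus strand, and the Opalin window chr19:41077114-41077363, minus strand.
Mobp: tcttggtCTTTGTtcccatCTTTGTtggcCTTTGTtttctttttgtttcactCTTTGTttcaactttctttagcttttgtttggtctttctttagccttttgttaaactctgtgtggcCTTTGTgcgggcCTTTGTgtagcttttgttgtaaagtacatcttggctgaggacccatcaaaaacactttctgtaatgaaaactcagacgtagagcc
Opalin: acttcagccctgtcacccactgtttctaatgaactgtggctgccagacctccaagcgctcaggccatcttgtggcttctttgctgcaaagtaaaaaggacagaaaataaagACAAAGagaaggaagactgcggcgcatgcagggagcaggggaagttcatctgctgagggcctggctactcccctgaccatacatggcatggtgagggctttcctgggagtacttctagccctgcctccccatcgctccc

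Over the window of 250 bases before to 50 after the start, Mobp held 6 matches to ACAAAG, all on the other strand and all before the start. Opalin held 2, of which 1 lies before the start and is printed, and also 1 match each to CTGGCAC and CAGCTG. The CTGGCAC match lies after the start. The CAGCTG match spans the start, and only its first base is printed. Cnp and 2 of the 3 Mag windows held 1 ACAAAG and 1 CTGGCAC match each. Of 32851 windows in the RefSeq table, 18.7% held ACAAAG, 12.6% ACAATG, 5.01% CTGGCAC and 16.3% CAGCTG. Of the 10 windows found for the myelin genes, 5 held ACAAAG, 4 held CTGGCAC, 1 held CAGCTG and 0 held ACAATG. The 2 Mag windows with matches overlap and share the same matches, so each of these is counted in both. A match is a description of the letters only.

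Mbp, the most abundant of the 9, was lower in C201R in each comparison without passing. The gene (ENSMUSG00000041607) lies on chromosome 18, 82475146 to 82585637, plus strand. In the undisputed libraries it had 14181, 12593, 13400 and 13868 CPM in C201R and 15815, 15577, 14917 and 14276 CPM in WT. The groups did not overlap, by a margin of 14181 against 14276 CPM. The log2 difference was -0.14 ± 0.03 (0.909-fold, 95% interval 0.864 to 0.956, edgeR adjusted p = 0.144), and DESeq2 called it (adjusted p = 0.0164). By library name the lowest, median and highest values were 12593, 13891 and 14783 CPM in C201R and 14276, 15292 and 15862 CPM in WT. The ranges overlapped, and the log2 difference was -0.12 ± 0.04 (edgeR adjusted p = 0.16); without library 9 it was -0.14 and passed (edgeR adjusted p = 0.0298), as 1.16% of all genes then did. By title it was -0.07 ± 0.04 (edgeR adjusted p = 0.792). Without libraries 1, 2 and 3 it was -0.01 by title and -0.09 by library name (edgeR adjusted p = 0.975 and 0.449).

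Ugt8a, the galactosylceramide enzyme, had its largest difference by library name. The gene (ENSMUSG00000032854) lies on chromosome 3, 125865271 to 125938619, minus strand. The lowest, median and highest values were 307, 370 and 390 CPM in the libraries named C201R and 370, 415 and 455 CPM in those named WT. The ranges overlapped between 370 and 390 CPM. The log2 difference was -0.21 ± 0.06 (0.866-fold, 95% interval 0.79 to 0.951) and did not pass (edgeR adjusted p = 0.17), while DESeq2 called it (adjusted p = 0.0346). In the undisputed libraries it was -0.16 ± 0.06, called neither by edgeR (adjusted p = 0.338) nor by DESeq2 (adjusted p = 0.166). By title it was -0.04 ± 0.08 (edgeR adjusted p = 0.96). Library 4, which is titled WT and named C201R, had the lowest value of all, 307 CPM, and library 5, WT by both labels, the highest, 455 CPM.

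The remaining 5 genes had no unadjusted p under 0.05 in any of the 3 genotype comparisons. They are Cnp (chromosome 11, 100574904 to 100591729), Mag (chromosome 7, 30899176 to 30914873), Mog (chromosome 17, 37010743 to 37023398), Cldn11 (chromosome 3, 31149920 to 31164324) and Mal (chromosome 2, 127633226 to 127656695). Their 95% intervals over the 3 comparisons ran from 0.876-fold to 1.15-fold, both bounds set by Cldn11. By title, Cnp had 1064 ± 63.5 CPM among carriers against 1024 ± 57.0 CPM among WT (SD, 6 libraries each), a difference of 0.05 ± 0.04 in log2 (adjusted p = 0.874 by edgeR). Mag had 739 ± 42.5 against 748 ± 34.1 CPM, or -0.02 ± 0.04 in log2 (adjusted p = 0.967 by edgeR). The surface gene Mog had 246 ± 13.4 against 238 ± 7.19 CPM, or 0.04 ± 0.04 in log2 (adjusted p = 0.894 by edgeR). Cldn11 and Mal had log2 differences of 0.03 ± 0.07 and -0.01 ± 0.05 (edgeR adjusted p = 0.971 and 0.999). By library name the log2 differences of these 5 were between -0.06 (Mag) and 0.03 (Cnp).

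By titled sex none of the 9 passed, beside 0% of all genes, and 1 of 9 had an unadjusted p under 0.05, beside 5.52%. DESeq2 also called 0 of the 9, beside 0.0507% of all genes. Mbp had the lowest unadjusted p, at 13973 ± 881 CPM in libraries titled male and 15059 ± 845 CPM in those titled female (SD, 6 libraries each), a difference of -0.11 ± 0.04 in log2 (adjusted p = 0.887 by edgeR). All 9 Schwann cell myelin genes were lower in libraries titled male, each at an unadjusted p under 0.05 (edgeR), and 0 were called. Their median log2 difference was -0.76. Their summed level had a median of 973 CPM in libraries titled male and 1718 CPM in those titled female. The part of this level in the Mbp difference was not tested. The titled sex goes against Xist in 6 libraries, so this comparison does not separate the sexes that Xist gives. The difference in the title genotype effect between titled males and females was also tested, and none of the 9 passed (0% of all genes), with 0 of 9 at an unadjusted p under 0.05 (4.27% of all genes). Mag and Mog had the lowest p, with log2 values of -0.16 ± 0.07 and -0.14 ± 0.06 (adjusted p = 0.966 by edgeR for both). In that test 8 of the 9 differences were negative, with a median of -0.11 beside 0.00 over all genes.

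The deposited gene length is the mean over a gene's transcripts weighted by their estimated abundance, and it moves when isoform use moves. Mbp, with 16 annotated transcripts in the files, had 1827 to 1847 bases over the 12 libraries, a spread of 1.13%. Mobp, Cnp and Mal, with 4, 4 and 2 transcripts, had 2588 to 2597, 2520 to 2545 and 2776 to 2778 bases. Mog, with 2, had 1635 bases in library 10 and 1658 to 1681 in the rest. None of these 5 passed by title or by library name (limma adjusted p = 1 for all), which does not show that lengths were equal. Of 11117 genes with a varying length 0% were called in either, and 4.37% and 4.97% had an unadjusted p under 0.05. Cnp by library name had the lowest unadjusted p of the 5, at 0.0603 (limma), with -0.008 ± 0.004 in log2. Mag, Cldn11, Opalin and Ugt8a have 1 transcript each in the files, so the large and small Mag isoforms could not be told apart.

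Over the 12 libraries, the 9 genes fell into genes that moved together and others that did not. The log2 CPM of Mog and Cnp had a Pearson r of 0.92 (n = 12), of Mog and Mag 0.80, of Mal and Cnp 0.76, of Mal and Mbp 0.76 and of Mag and Mbp 0.72. Ugt8a and Cldn11 had 0.67. Mobp had 0.56 with Mbp, where Spearman was 0.27, and negative values with Opalin (-0.78, Spearman -0.73) and Cldn11 (-0.55, Spearman -0.53). Of the 36 pairs 26 were positive, with a median of 0.33. All points share their libraries and scaling, and these values are given as a description.

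**Figure D4:**
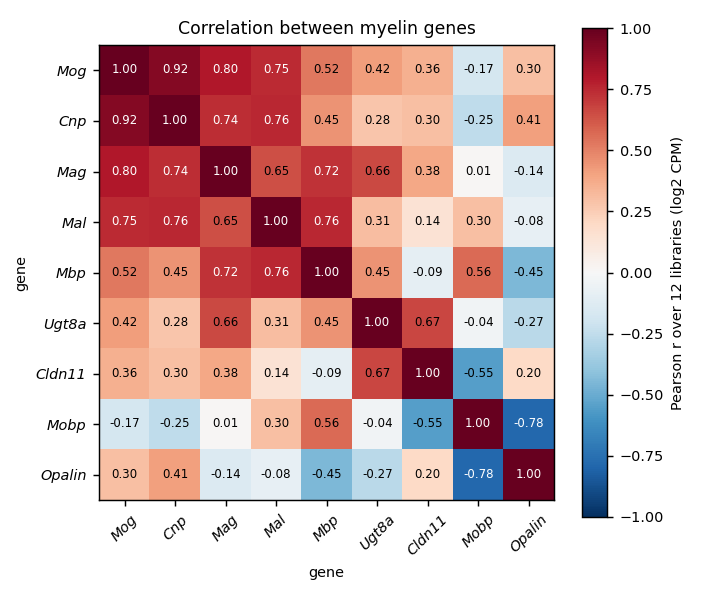
Pearson r of log2 CPM over the 12 libraries for each pair of the 9 myelin genes, from -1 (blue) to 1 (red). Mog, Cnp, Mag, Mal and Mbp form a red block, and the pair of Mobp and Opalin is the most negative at -0.78.

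The genes most like the mean of the 9 in profile were sought among 15177 others with a mean above 1 CPM. They included Gramd3 (r = 0.92 over the 12 libraries), Papss1 (0.91), Sox10 (0.90), Gna12 (0.90), Enpp6 (0.88), Sirt2 (0.87), Prickle1 (0.87), Gprc5b (0.87) and Cmtm5 (0.86). Sirt2 and Cmtm5 were on the list of other oligodendrocyte genes, Sox10 on that of transcription factors and Enpp6 on that of oligodendrocyte precursor markers. For single members, Mag was closest to Enpp6 (0.93) and Sox10 (0.92), and Mbp to Elovl1 (0.94), an elongase of very long chain fatty acids, and Abhd17a (0.94). Mobp was closest to the chaperone genes Hspd1 (0.95) and Hsph1 (0.95), whereas Opalin was closest to H2-Ab1, an MHC class II gene of antigen-presenting cells (0.94, at 1.24 to 3.94 CPM), and Endov (0.93). Mog was closest to Dennd5a and Fscn1 (0.95 and 0.93), and Cnp to Sbf1 and Nkx2-2os (0.95 and 0.93). Mal was closest to Tsc22d4 and Map4k4 (0.90 and 0.90), and Cldn11 to Phf17 and Tspan3 (0.91 and 0.91). For Ugt8a the closest were Klhl2 and Megf9 (0.91 and 0.88). All these genes were picked for a high r among the many compared, over only 12 libraries. How high an r such picking would give among unrelated genes was not tested. The values are therefore a description and do not show shared regulation.

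The levels of neuron and nerve-root genes went with those of some members. The summed level of 10 neuron genes, 8489 to 8983 CPM in libraries named C201R and 10073 to 10940 CPM in those named WT, had a Pearson r over the 12 libraries of 0.81 with Mbp, 0.63 with Mobp, 0.51 with Ugt8a and -0.69 with Opalin (Spearman 0.83, 0.57, 0.38 and -0.76). Without the 2 libraries farthest from the median sum, these were 0.75, 0.47, 0.70 and -0.57. The neuron sum holds the neurofilament genes Nefl, Nefm and Nefh, which were themselves called lower by library name. Their means were 1643, 1788 and 1006 CPM in libraries named C201R and 2135, 2456 and 1317 CPM in those named WT. The neuron sum is therefore not a measure of neuron content alone. The fat sum had -0.60 with Mbp and -0.57 with Mobp (Spearman -0.63 and -0.07). The part of these tissues in the results was not tested. Over the 12 libraries, the summed level of the 9 Schwann cell myelin genes had a Pearson r of 0.70 with Mal, 0.63 with Mbp, 0.56 with Cnp, 0.21 with Opalin and 0.09 with Ugt8a (Spearman 0.71, 0.64, 0.51, 0.14 and 0.02). Without the 2 libraries farthest from the median sum, r was 0.67, 0.71, 0.39, -0.06 and 0.08. The Schwann sums were 754 to 1474 CPM in the undisputed C201R libraries and 526.0 to 2218 CPM in the undisputed WT libraries. This level was also made a term in the fit, a setting chosen after seeing the data. The undisputed log2 differences were then -0.15 for Mbp, 0.44 for Opalin and -0.16 for Ugt8a (edgeR adjusted p = 0.0848, 0.0848 and 0.372). Without the term they were -0.14, 0.44 and -0.16. With the term, Mal went from -0.02 to -0.04 and Cnp from 0.07 to 0.06. By title Mbp went from -0.07 to -0.10, Mal from -0.01 to -0.04 and Cnp from 0.05 to 0.03. By library name Mbp had -0.12, Opalin 0.30 and Ugt8a -0.20 with the term (edgeR adjusted p = 0.183, 0.201 and 0.205). Without the term these were -0.12, 0.29 and -0.21. None of the 9 Schwann genes was called in the 3 genotype comparisons. By title 8 of them were higher and 1 lower, by library name 1 and 8, and in the undisputed libraries 7 and 2.

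**Figure D5:**
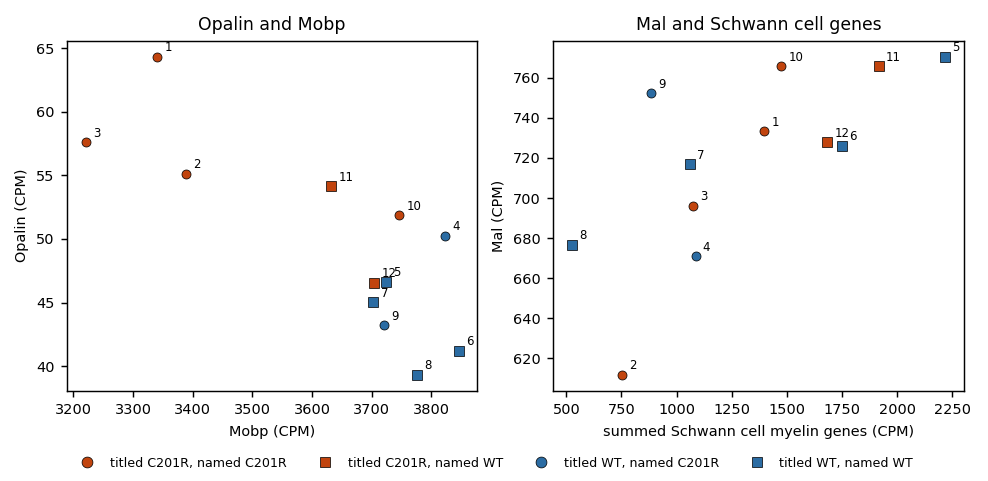
Left, CPM of Opalin against Mobp; right, CPM of Mal against the summed CPM of 9 Schwann cell myelin genes; 12 libraries each, labelled by number, colour and shape as title and library-name genotype. Libraries 1, 2 and 3 stand apart on the left at low Mobp and high Opalin, and on the right Mal runs from 612 CPM in library 2 to 771 CPM in library 5.

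Other genes of the oligodendrocyte lineage were not called either. Of 43 other myelin and mature oligodendrocyte genes, 0 were called in the 3 genotype comparisons; by library name 10 were higher and 33 lower (median log2 difference -0.05), and 7 had an unadjusted p under 0.05, all lower, where 6.81% of all genes were lower at that p. By title 22 were higher and 21 lower (median 0.00), and 1, lower, had such a p. In the undisputed libraries 16 were higher and 27 lower (median -0.03). Of these, 9, all lower, had such a p, where 12.7% of all genes had it in either direction. The lowest p by library name was that of Ermn, a cytoskeletal protein gene of mature oligodendrocytes. Ermn had 296 ± 13.8 CPM in libraries named C201R against 322 ± 15.2 CPM in those named WT (SD, 6 libraries each). That is -0.15 ± 0.03 in log2 (adjusted p = 0.0648 by edgeR). In the undisputed libraries the lowest p was that of Klk6, a secreted protease gene. Klk6 had 91.6 ± 4.29 CPM in C201R against 106 ± 3.12 CPM in WT (SD, 4 libraries each), or -0.22 ± 0.04 in log2 (adjusted p = 0.0921 by edgeR).

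The transcription factors were also uncalled, 0 of 13 in each genotype comparison. Sox10 ranged from 117 to 150 CPM and Myrf from 199 to 234 CPM over the 12 libraries, with log2 differences by title of -0.02 ± 0.06 and 0.00 ± 0.04 (edgeR adjusted p = 0.977 and 0.999). Nkx2-2 and Sox8, the 2 of lowest p by title, had 0.15 ± 0.07 and 0.08 ± 0.05 (edgeR adjusted p = 0.766 and 0.837). Of the 11 precursor markers measured, 0 were called. Cspg4, the NG2 proteoglycan gene of precursors and pericytes, had 35.9 ± 2.78 CPM among carriers against 31.8 ± 1.55 CPM among WT by title (SD, 6 libraries each), or 0.17 ± 0.05 in log2 (adjusted p = 0.64 by edgeR). Neu4, a sialidase gene, had -0.21 ± 0.05 by library name (edgeR adjusted p = 0.117).

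The lipid genes that act beside Ugt8a were mostly lower by library name, as Ugt8a was, without a call. Of 12 galactolipid and sphingolipid genes 11 were lower and 1 higher, with a median of -0.08, 0 called and 4 lower at an unadjusted p under 0.05, where 6.81% of all genes were lower at that p. Elovl1 had -0.15 ± 0.05 and Sptlc1, a subunit of serine palmitoyltransferase, -0.12 ± 0.04 (edgeR adjusted p = 0.214 and 0.206). Of 20 cholesterol synthesis genes 19 were lower, with a median of -0.13, 0 called and 12 lower at that p. Sc5d and Sqle, enzymes of sterol synthesis, had -0.17 ± 0.04 and -0.14 ± 0.03 (edgeR adjusted p = 0.0591 and 0.0649). By title the medians of both lists were -0.02 and -0.04, and 1 and 0 genes were lower at that p. In the undisputed libraries the medians were -0.05 and -0.10, and 2 and 7 genes were lower at that p. There 12.7% of all genes had such a p in either direction. Of the 10 node and paranode genes 0 were called in any of the 3 comparisons, and Epb41l3 and Kcna1 had -0.08 ± 0.02 and -0.06 ± 0.03 by library name (edgeR adjusted p = 0.169 and 0.35). Beside them, the neuron list had 4 of 10 genes called by library name, all lower, among them the neurofilament gene Nefl (-0.37 ± 0.03, edgeR adjusted p = 0.000144), beside 0.546% of all genes called lower. Whether the neuron and myelin genes differ in this was not tested.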

How the data were processed

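RNA of whole spinal cord was made into strand-specific libraries after polyA selection and read from both ends, per the labels' protocols. The submitters' processing notes name Bowtie2 2.2.0 and RSEM 1.2.12. The build is not given in the sources used here. For each library the authors deposited, per the file headers, the RSEM expected count (estimated reads per gene), TPM and isoform-weighted length. RSEM divides reads shared by several genes among them.

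Expected counts were rounded, filtered with filterByExpr by the 4 titled groups (17765 genes, 18384 for the 8 undisputed libraries), normalised by TMM, and fitted by the quasi-likelihood method of edgeR 4.0.16 (R 4.3.3), adjusting p by Benjamini-Hochberg across every gene tested, with a threshold of 0.05. Titled sex was a term in the genotype fits, and title genotype in the sex fit. The genotype estimates are therefore adjusted for a label that Xist goes against in several libraries. Titled sex is balanced by title, but not by library name or in the undisputed libraries. Fitted differences can thus depart from the group means: Cldn11 by library name had 469 CPM in C201R and 466 CPM in WT, but -0.03 in log2. A fit without the sex term was among the alternatives. SE is the log2 difference divided by the square root of its F statistic. Lengths were tested with limma 3.58.1 on log2 values. Correlations used log2(CPM + 0.5). Alternatives included DESeq2 1.42.0, other scalings and filters, voom, limma on log2 TPM with a pseudocount of 1 or 0.1, the library number as a term, and leaving out each library. The fits were tested on simulated data. No 2 libraries agreed within sampling noise (66 pairs, chi-square per degree of freedom at least 6.5).

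Positions were looked up in GENCODE M21 by Ensembl ID, and promoter windows from RefSeq, by symbol, for 8 members. All 9 members are described. Other genes are named by rule: up to 4 called genes of lowest p per list and comparison, or else the 2 of lowest p, Gars, and the genes most alike in profile; some such genes are left to the counts or not reported here. The members, lists and rules were chosen with earlier results of these data known.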

Additional observations from a re-analysis of the deposited data

Results flagged for a closer look

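Each of the 9 genes was looked at in 8 sets of libraries (by title, library name, undisputed labels and titled sex), 72 sets of values in all, for a lowest or highest value far from the others. Only Mog in library 11 stood out, at 266 CPM among the 6 libraries named WT, where the next highest value was 245 CPM. By chance about 5% of such sets would hold one.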

How the results depend on the processing

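The count of 0 called myelin genes held in 23 of 24 other settings by title, 22 of 24 by library name, 15 of 19 in the undisputed libraries, and in all settings for titled sex (22) and for the difference between titled sexes (21). With DESeq2 the counts were 1, 2 and 2 in the 3 genotype comparisons. In the undisputed libraries 1 gene passed without a filter on low counts (Opalin) and 2 with voom and quality weights (Opalin and Mbp). Leaving out single libraries gave 0 by title, 0 to 1 by library name (Mbp, without library 9) and 0 to 2 in the undisputed libraries (Opalin and Mobp, without library 10). Without library 10 the undisputed C201R group is libraries 1, 2 and 3 alone. The causes were not tested. The median log2 difference of the 9 genes ran from -0.03 to 0.04 by title, -0.06 to 0.00 by library name and -0.04 to 0.03 in the undisputed libraries, and kept its sign in 17 of 24, 23 of 24 and 15 of 19 settings. Opalin kept its sign in every setting of the 3 genotype comparisons. The count over all genes ranged from 0 to 18 by title, 25 to 318 by library name and 5 to 252 in the undisputed libraries. The length test called 0 of the 5 genes whose length varies in every setting run. No paired analysis was possible because the titled groups share no replicate numbers.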
